A study of Rattus norvegicus with 132 samples.

Results

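The genes described here are 46 genes of mitosis, chosen by symbol: cyclins and their kinase, the kinases and checkpoint proteins of cell division, kinetochore and spindle proteins, proteins of cytokinesis and proteins that shape chromosomes. Of these, 44 have a row among the 21837 genes of the count tables, while Nek2 and Cks2 have none under that symbol and were not analysed here. The tables hold RNA-seq libraries of colon and jejunum epithelium from Sprague Dawley rats, 6 in each of 22 groups. Non-irradiated rats were left untreated and have 1 group per tissue. All other rats received abdominal irradiation as 5 fractions of 4 Gy on days 0 to 4, and their tissue was taken at day 4 or day 7. The labels count these days "after irradiation" and do not say from which fraction. The irradiated rats were given nothing else, oral water as vehicle, compound Kushen powder by mouth (called a pill in another label of the same groups), an intraperitoneal vehicle (25 mM HEPES with 0.25% Tween-80), or compound Kushen injection by the same route. Both preparations are named for kushen, the root of Sophora flavescens. The labels give no age or sex for the rats and call the libraries of a group biological replicates.

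Epithelium of the gut is renewed by dividing cells in the crypts, whose daughters stop dividing as they move towards the lumen. Cells that enter mitosis switch on a shared set of genes in G2 phase, and the MuvB complex with B-Myb and FOXM1 drives many of them through a short promoter motif, the CHR element. Since these transcripts are low in resting cells, their level in bulk tissue is widely read as a measure of dividing cells. In bulk RNA, a change in the number of dividing cells and a change in RNA per cell cannot be told apart.

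Promoter windows of 6 of the genes are printed because the genes rise and fall together across the libraries, and because these windows show the motifs that mitosis genes are known for. The sequences are RefSeq windows on the rat build GRCr8, from 250 bases before the annotated start to 50 bases after it, on the gene's own strand. The counts were made on mRatBN7.2, so the windows were matched by symbol. Capitals mark CCAAT and TTTGAA on either strand (ATTGG and TTCAAA on the other strand). Hmmr and Kif15 had the largest and the smallest rise in colon at day 7, Ccnb1 has CCAAT boxes with no hexamer, and in Mki67 a hexamer and a CCAAT match overlap.
Hmmr (GRCr8 chr10:25665166-25665465, minus strand): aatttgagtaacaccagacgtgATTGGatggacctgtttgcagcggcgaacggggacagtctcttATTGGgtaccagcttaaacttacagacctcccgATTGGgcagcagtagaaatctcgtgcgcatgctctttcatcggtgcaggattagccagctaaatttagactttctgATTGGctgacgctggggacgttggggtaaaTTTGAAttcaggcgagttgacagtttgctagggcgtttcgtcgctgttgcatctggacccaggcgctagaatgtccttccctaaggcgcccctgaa
Ccnb1 (GRCr8 chr2:33655176-33655475, minus strand): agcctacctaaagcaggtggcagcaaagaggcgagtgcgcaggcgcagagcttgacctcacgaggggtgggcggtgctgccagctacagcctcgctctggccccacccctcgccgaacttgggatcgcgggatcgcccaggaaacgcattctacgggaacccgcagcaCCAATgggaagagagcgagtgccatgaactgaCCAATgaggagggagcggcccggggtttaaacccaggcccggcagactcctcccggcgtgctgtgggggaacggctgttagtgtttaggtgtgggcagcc
Cdk1 (GRCr8 chr20:19265043-19265342, plus strand): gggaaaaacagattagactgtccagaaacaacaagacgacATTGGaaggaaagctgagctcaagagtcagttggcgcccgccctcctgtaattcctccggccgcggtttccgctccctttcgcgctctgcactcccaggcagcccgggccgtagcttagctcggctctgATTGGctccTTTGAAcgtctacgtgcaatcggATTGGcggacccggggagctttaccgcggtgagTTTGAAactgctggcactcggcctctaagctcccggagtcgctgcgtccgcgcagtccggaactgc
Cdc20 (GRCr8 chr5:137255750-137256049, minus strand): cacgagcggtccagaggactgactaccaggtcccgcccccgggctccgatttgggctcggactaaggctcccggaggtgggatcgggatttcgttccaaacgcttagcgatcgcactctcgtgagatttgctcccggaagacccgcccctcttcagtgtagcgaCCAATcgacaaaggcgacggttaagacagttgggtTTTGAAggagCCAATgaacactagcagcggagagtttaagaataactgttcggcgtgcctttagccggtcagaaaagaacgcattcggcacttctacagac
Mki67 (GRCr8 chr1:199952544-199952843, minus strand): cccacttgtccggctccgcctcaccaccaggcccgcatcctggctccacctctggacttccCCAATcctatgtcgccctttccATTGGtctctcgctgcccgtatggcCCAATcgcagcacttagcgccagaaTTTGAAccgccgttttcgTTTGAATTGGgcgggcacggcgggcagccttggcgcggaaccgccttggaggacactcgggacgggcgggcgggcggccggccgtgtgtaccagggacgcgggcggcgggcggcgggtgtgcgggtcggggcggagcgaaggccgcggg
Kif15 (GRCr8 chr8:131479154-131479453, plus strand): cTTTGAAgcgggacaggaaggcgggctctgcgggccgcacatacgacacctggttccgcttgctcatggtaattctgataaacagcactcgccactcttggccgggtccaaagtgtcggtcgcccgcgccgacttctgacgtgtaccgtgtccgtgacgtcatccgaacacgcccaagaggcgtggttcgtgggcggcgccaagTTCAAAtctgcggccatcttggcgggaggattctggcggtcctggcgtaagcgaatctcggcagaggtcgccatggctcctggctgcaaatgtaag

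A window was given for 38 of the 44 genes and not for Ccna2, Aurkb, Tpx2, Foxm1, Ube2c and Racgap1. CCAAT, searched on both strands, was found in 27 windows (71.05%), against 37.49% of all 33469 windows of that length. The CHR hexamer TTTGAA was found in 28 windows (73.68%), against 18.35% of all windows. The variant TTCGAA was found in 2 windows, both of which also hold TTTGAA. Both CCAAT and a CHR hexamer stood in 22 windows (57.89%), against 7.954% of all windows. The shares of all windows count windows, and those of the members count genes. Counted per gene, the 10252 other tested genes with a window had CCAAT in 39.05%, TTTGAA in 12.49% and both kinds of motif in 6.252%. In 23 of the genes a hexamer lay within 60 bases of the annotated start, as in Hmmr at 46 bases and Cdc20 at 51 bases before it. Kif15 has hexamers 249 and 46 bases before its start and no CCAAT in the window. The genes with and without the motifs overlapped in their change after irradiation: at day 7 in colon the median log2 change was 1.89 for the 22 genes with both motifs (range 0.99 to 2.72) and 1.63 for the 5 with neither (range 1.06 to 2.26). In jejunum at day 7 the order was the other way, with medians of 2.76 and 3.03. A match of letters is a description of the window and does not show that a factor binds there.

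Each library held 17.2 to 19.8 M counts, and levels are given as CPM, the count scaled to library size with TMM factors. Epithelial markers (7 of 8 in the tables) in colon summed to 12981 CPM ± 913 (SD, n = 6) in non-irradiated rats and to 14894 CPM at day 7 after irradiation alone. Markers of mature colon cells (4 of 5 in the tables) went from a mean sum of 18840 CPM to 6035 CPM at day 4 and 2513 CPM at day 7 in irradiated untreated colon, and those of absorptive jejunum (5 of 6) went from 58207 CPM to 64678 and 22435 CPM in jejunum. Ptprc, carried by all white blood cells, went from 8.70 to 4.60 and 2.47 CPM in colon. In jejunum it went from 12.2 to 2.00 and 0.94 CPM. Its non-irradiated jejunum libraries were at 18.4 to 21.6 CPM in replicates 1 to 3 and 2.60 to 5.24 CPM in replicates 4 to 6. At day 4 after irradiation alone, jejunum replicates 4 to 6 overlapped the latter, at 1.45 to 4.89 CPM. The 4 germinal centre B cell markers summed to 6.67, 10.0 and 9.75 CPM in colon, and the 7 fibroblast markers to 14.9, 52.8 and 72.1 CPM. For fibroblasts at day 7, replicates 1 and 2 were at 146 and 219 CPM and the others at 12.5 to 26.5 CPM. Non-irradiated colon lay at 11.2 to 17.3 CPM. T cell markers (5 of 7 in the tables) went the other way from Ptprc, with sums of 3.97, 8.35 and 9.08 CPM in colon and 22.5, 66.1 and 85.2 CPM in jejunum. Non-irradiated jejunum was again split, at 30.9 to 35.2 CPM in replicates 1 to 3 and 11.4 to 13.2 CPM in replicates 4 to 6. The 5 neutrophil markers summed to 1.00, 42.5 and 26.3 CPM in colon, and the 7 macrophage markers to 17.1, 37.8 and 33.1 CPM in colon and 39.7, 19.0 and 15.9 CPM in jejunum. No marker of colon, jejunum or fibroblasts was at 0 in these groups, while Mzb1 or Ms4a1 of the B cell list was at 0 in irradiated jejunum and S100a8, S100a9 or Mpo of the neutrophil list in some jejunum groups. The part of these cell types in the results was not tested. The first digit of the library names gives 3 series: replicates are split 3 and 3 between series 1 and series 2 except in the injected groups, which are all of series 3. A gene is called changed where the Benjamini-Hochberg adjusted p of the edgeR quasi-likelihood test, over all genes tested in the comparison, is under 0.05.

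Foxm1, the transcription factor of the set, was near 0 throughout and did not pass the filter on low counts in any comparison. Its group means lay between 0.02 and 0.33 CPM. Whether the gene model used for counting captures Foxm1 was not tested, so these counts are not read as its RNA level. The 6 non-irradiated colon libraries together held 15 counts and the 6 irradiated untreated colon libraries at day 7 held 32, so no test was made. The 43 other genes were tested in every comparison, and the counts below are out of these 43.

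In non-irradiated rats the mitosis genes were lower in jejunum than in colon. Of the 43 genes, 40 were lower in jejunum and 0 higher, with a median log2 difference of -1.86, where 41.6% of the 13741 genes tested were lower and the median of all genes was -0.21. Kif2c, a kinesin that takes microtubules apart, differed most: it lay between 10.6 and 17.2 CPM in the 6 colon libraries (median 13.1) and between 0.98 and 3.87 CPM in the jejunum libraries (median 1.47), and the fitted level was 8.01-fold lower in jejunum (adjusted p = 9.4e-11). Kif23 (-2.74) and the topoisomerase Top2a (-2.49) came next. Prc1, which bundles the central spindle, was the exception in direction, at 0.24 ± 0.26 (adjusted p = 0.42). Prc1 was not called, nor were Anln at -0.49 and Aurka at -0.17. These are differences between tissues in relative level, and 71.5% of all genes tested differed between the tissues in either direction. Colon and jejunum libraries were taken as independent in this test.

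Before the effect of irradiation is given, 2 libraries of irradiated untreated jejunum at day 4 need naming. Summarised as the median over the 44 genes of log2(CPM + 0.5) relative to the mean of the non-irradiated libraries of the tissue, replicate 1 stood at 2.69 and replicate 2 at -0.56, and the other 4 between 0.88 and 1.29. Replicate 2 was thus as low as the lowest non-irradiated jejunum library, at -0.53. Ccng1, a p53 target that rises after irradiation, was at 175 CPM in replicate 2, above the 34.4 to 55.3 CPM of non-irradiated jejunum and below the 237 to 352 CPM of the other 5 libraries. Summed markers of absorptive jejunum were lowest in replicate 1 (28180 CPM) and highest in replicate 2 (116718 CPM), with 46493 to 76647 CPM in the other 4. The results for this group are therefore given with and without these libraries.

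**Figure D1:**
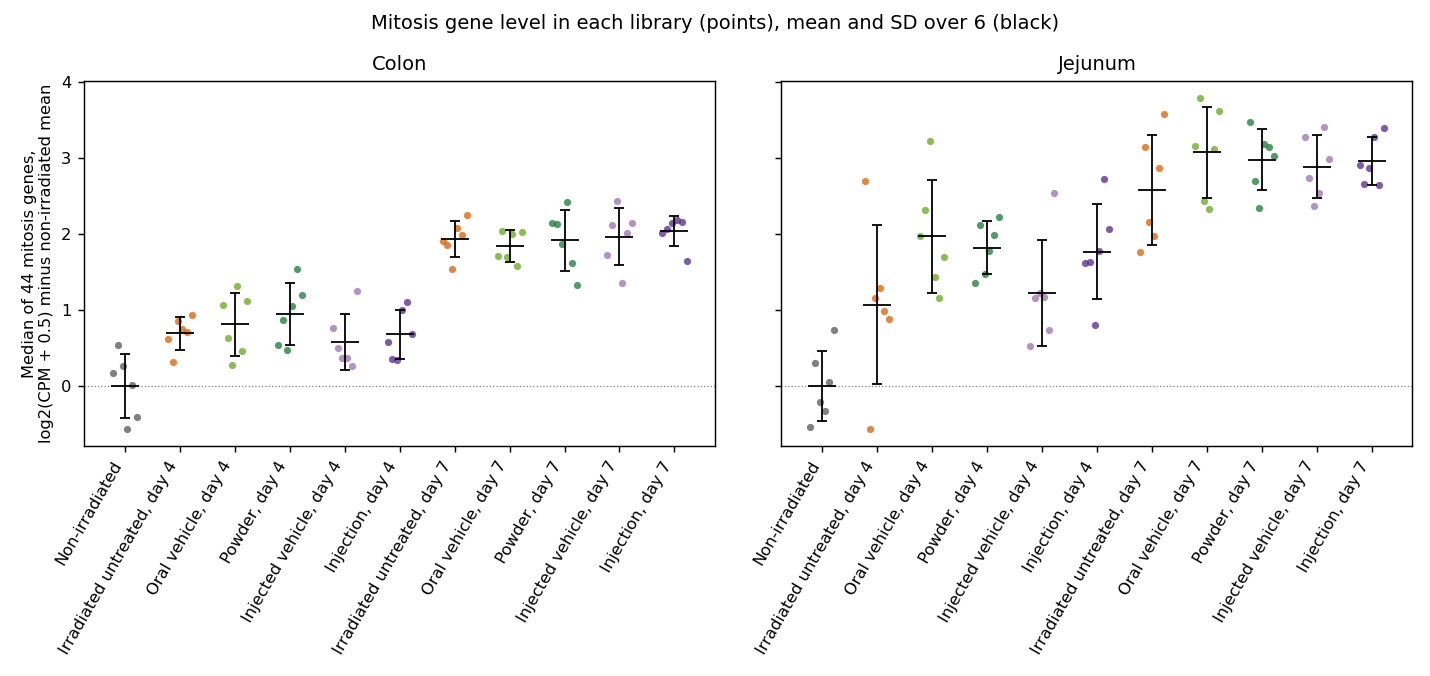
Median of the 44 mitosis genes in each library (points), as log2(CPM + 0.5) minus the mean of the non-irradiated libraries of that tissue, by group on the x axis, with mean and SD over 6 libraries in black. Every day 7 group lies above the non-irradiated group in both tissues, and the irradiated untreated jejunum libraries at day 4 spread from -0.56 to 2.69.

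In colon, irradiation alone raised most of the mitosis genes by day 4 and the whole tested set by day 7. At day 4, 32 of 43 genes were called higher and 0 lower, with a median log2 change of 0.71, where 24.6% of the 13306 genes tested were higher and the median of all genes was 0.02. At day 7, 43 of 43 were higher with a median of 1.91, a 3.75-fold rise, where 32.9% of all genes tested were higher. In 9 genes at day 4 and 42 at day 7 every irradiated library lay above every non-irradiated library, against 13.1% and 20.8% of all genes tested. Kif15 was the gene that still overlapped at day 7.

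In jejunum most of the mitosis genes were called at day 4 and the whole tested set at day 7, and libraries were more uneven at day 4 than in colon. The median change was above that of colon on both days, but at day 4 this order depended on the libraries: within series 2 the median was 1.20 in colon and 0.79 in jejunum. At day 4, 37 of 43 genes were called higher and 0 lower, with a median log2 change of 1.44, where 25% of the 12501 genes tested were higher. At day 7, 43 of 43 were higher with a median of 2.93, a 7.61-fold rise, where 31.4% of all genes tested were higher. Only Aurka and Anln had groups that did not overlap at day 4 (2 of 43, against 5.59% of all genes tested), and 42 of 43 did at day 7 (against 15.8%), with Prc1 the exception. Without replicate 1 of irradiated untreated jejunum, 14 genes were called at day 4 with a median of 0.89, and without replicate 2, 40 genes with a median of 1.64. Both removals were chosen after seeing the data, and the share of all genes called was not counted for them.

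The day 4 counts also differed by library series. In colon, 4 genes were called with series 1 alone (median 0.35) and 36 with series 2 alone (median 1.20), and the non-irradiated colon libraries of series 1 stood at 0.18 to 0.55 on the library median against -0.56 to 0.02 in series 2. In jejunum, 13 were called with series 1 (median 2.04) and 19 with series 2 (median 0.79). At day 7, 41 to 43 genes were called within either series in either tissue. How many of all genes tested were called within a series, or in the fit with the mitochondrial share below, was not counted. These counts thus cannot tell a change of the mitosis genes from a change in what a fit can call. The share of mitochondrial counts moved with the same groups: in colon it was 12.3% in non-irradiated rats, 9.16% at day 4 and 3.95% at day 7. With that share as a covariate, colon kept 8 called genes at day 4 and 0 at day 7 (32 at an unadjusted p under 0.05, median 1.12), and jejunum kept 32 and 43. In colon the share does not overlap between non-irradiated and day 7 libraries, so the share and irradiation cannot be told apart there.

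**Figure D2:**
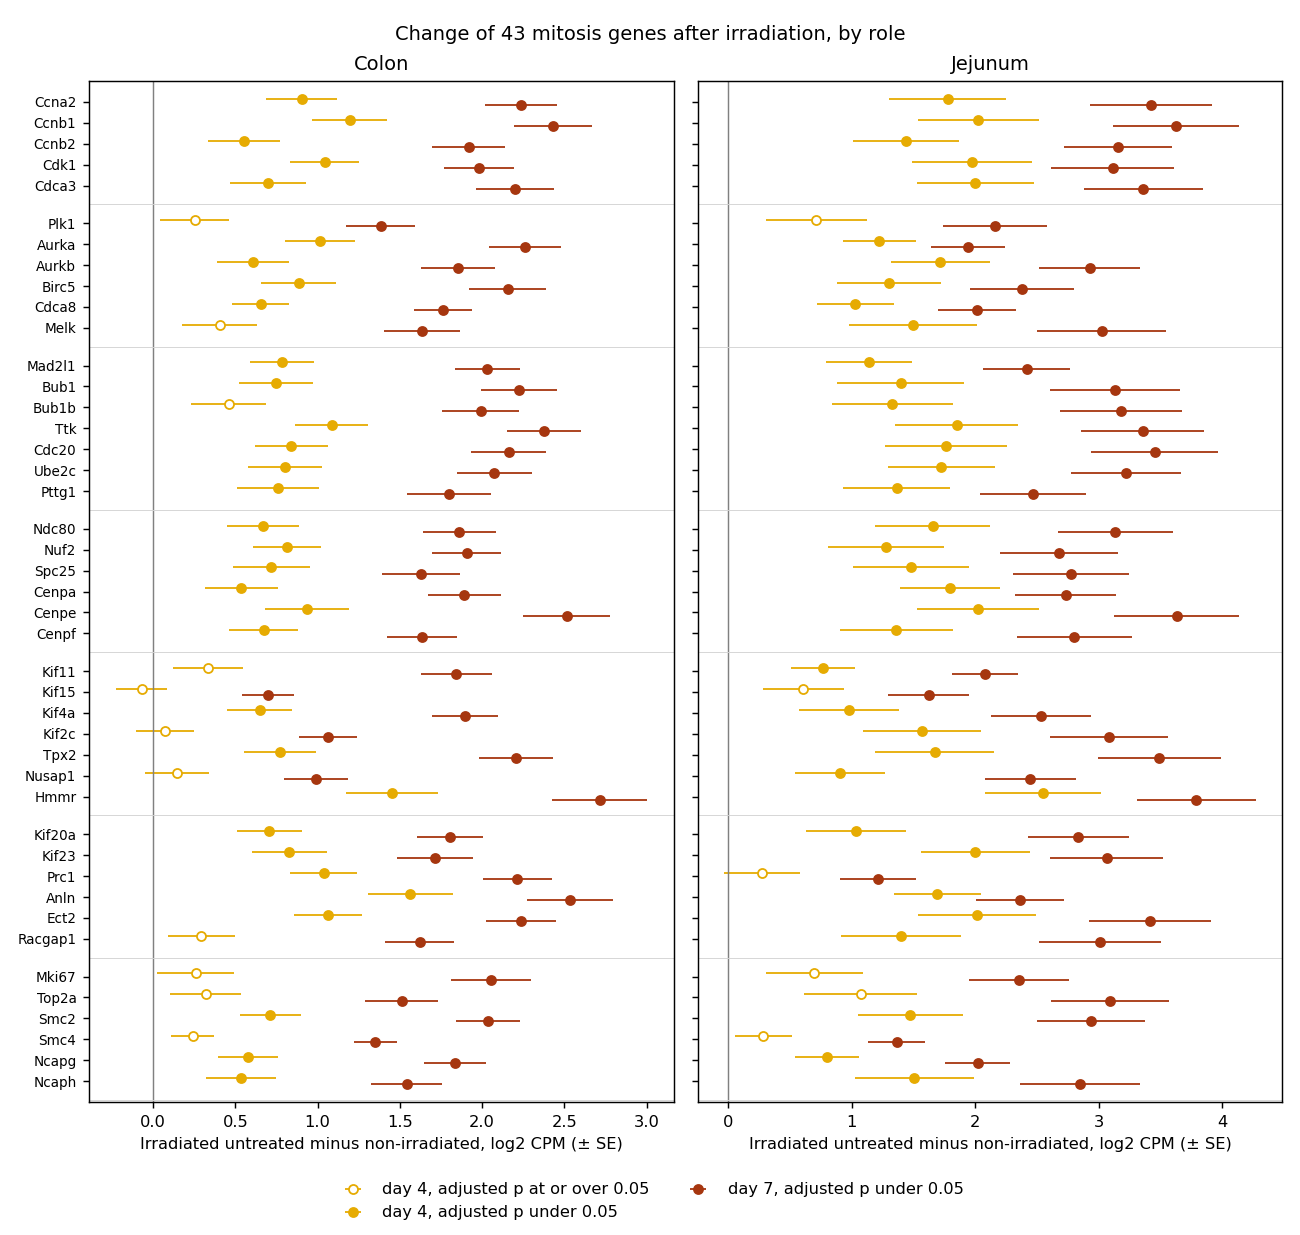
Log2 change ± SE of the 43 tested mitosis genes, irradiated untreated minus non-irradiated, by role from mitotic entry (top) to chromosomes (bottom), with day 4 in yellow and day 7 in brown, and open points where the adjusted p is at or over 0.05. In colon the points at day 4 run from -0.07 (Kif15) to 1.56 (Anln) and at day 7 from 0.70 (Kif15) to 2.72 (Hmmr), and the jejunum points reach 3.79 (Hmmr at day 7).

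The regulators of mitotic entry are the cyclins that bind the kinase Cdk1 and the proteins that help switch it on. All 5 tested genes of this role were called in both tissues on both days. Ccnb1, the cyclin B that drives entry into mitosis, lay between 7.23 and 21.3 CPM in non-irradiated colon (median 14.9), between 24.2 and 34.7 CPM at day 4 (median 33.4) and between 58.6 and 94.8 CPM at day 7 (median 75.1). The 3 colon groups did not overlap, and the rise was 2.29-fold at day 4 (log2 1.20 ± 0.23, adjusted p = 7.7e-05) and 5.39-fold at day 7 (log2 2.43 ± 0.23, adjusted p = 1.9e-10). In jejunum Ccnb1 went from 1.15 to 7.75 CPM (median 3.65) over 2.51 to 41.8 CPM at day 4 (median 12.1) to 18.3 to 87.8 CPM at day 7 (median 41.8). The jejunum groups overlapped at day 4 and no longer at day 7, where the rise was 12.4-fold (log2 3.63 ± 0.51, adjusted p = 5.8e-07). Cdk1 itself rose 3.95-fold in colon and 8.65-fold in jejunum by day 7. The S and G2 phase cyclin Ccna2 rose 4.71-fold and 10.7-fold.

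Among the mitotic kinases and the chromosomal passenger complex, 4 of 6 tested genes were called in colon at day 4, 5 of 6 in jejunum at day 4, and 6 of 6 in both at day 7. Aurkb, Birc5 and Cdca8 belong to the passenger complex, which corrects wrong attachments of chromosomes, and all were called on both days in both tissues. Aurka, the spindle pole kinase, was at 5.53 to 14.7 CPM in non-irradiated colon, 12.9 to 23.9 CPM at day 4 and 36 to 59 CPM at day 7, with medians of 9.39, 19.9 and 47.4 CPM. In jejunum its medians were 9.33, 17.6 and 33.1 CPM, and the highest non-irradiated library, at 11.1 CPM, lay below the lowest at day 4, at 13.5 CPM. Plk1, a kinase used at most steps of mitosis, was not called at day 4 in either tissue (log2 0.25 ± 0.21 in colon and 0.71 ± 0.41 in jejunum) and rose 2.61-fold in colon and 4.47-fold in jejunum by day 7. Melk was not called in colon at day 4 (log2 0.41 ± 0.23).

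The spindle checkpoint holds chromosomes back until all are attached, and the anaphase promoting complex then starts their separation. Of these 7 genes, 6 were called in colon at day 4 and 7 in the 3 other comparisons. Bub1b was the gene not called, at log2 0.46 ± 0.23 (adjusted p = 0.094). Ttk, the kinase that starts the checkpoint signal, lay between 2.27 and 7.15 CPM in non-irradiated colon (median 4.68), between 7.45 and 12 CPM at day 4 (median 10.1) and between 18.8 and 30.4 CPM at day 7 (median 25). These groups did not overlap. Cdc20, which activates the anaphase promoting complex, rose 4.47-fold in colon and 11-fold in jejunum by day 7, and Ube2c, its ubiquitin-conjugating enzyme, 4.21-fold and 9.34-fold. Mad2l1 and Pttg1, whose products hold Cdc20 and separase in check, rose less in jejunum, 5.35-fold and 5.53-fold.

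All 6 kinetochore genes were called on both days in both tissues. Ndc80, Nuf2 and Spc25, subunits of the complex that grips microtubules, rose by a log2 of 0.67, 0.81 and 0.72 in colon at day 4 and 1.86, 1.91 and 1.63 at day 7. In jejunum the same genes rose by 1.66, 1.28 and 1.48 and then 3.14, 2.68 and 2.78. Cenpe, a kinesin that carries chromosomes to the middle of the spindle, rose most of the role, by 2.51 ± 0.26 in colon and 3.63 ± 0.50 in jejunum at day 7. Cenpa, the histone that marks centromeres, rose by 1.80 ± 0.41 in jejunum at day 4 and by 0.54 ± 0.22 in colon.

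Of the 7 spindle genes, 3 were called in colon at day 4, 6 in jejunum at day 4 and 7 in both at day 7. Hmmr, a microtubule-binding protein of the spindle poles, rose most of all 43 genes in 3 of the 4 comparisons. It lay between 2.27 and 9.87 CPM in non-irradiated colon (median 6.1), between 9.32 and 19.1 CPM at day 4 (median 16.3) and between 32.4 and 42.7 CPM at day 7 (median 36.9). In jejunum it lay between 0.76 and 2.64 CPM (median 1.66), between 1.54 and 26.1 CPM at day 4 (median 7.24) and between 7.66 and 39 CPM at day 7 (median 22.8). At day 7 the rise was 6.57-fold in colon (log2 2.72 ± 0.29, adjusted p = 1e-09) and 13.8-fold in jejunum (log2 3.79 ± 0.48, adjusted p = 1.3e-07).

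Kif15, a spindle kinesin that can stand in for Kif11, was at the other end. Its colon libraries lay between 5.94 and 10 CPM in non-irradiated rats (median 8.37), between 7.35 and 8.83 CPM at day 4 (median 7.75) and between 9.6 and 16.4 CPM at day 7 (median 14.2). The log2 change was -0.07 ± 0.16 at day 4 (adjusted p = 0.73) and 0.70 ± 0.16 at day 7 (adjusted p = 0.00024), a 1.62-fold rise with 5 of 6 libraries above the highest non-irradiated library. Kif2c and Nusap1 were not called in colon at day 4 either, at log2 0.07 ± 0.18 and 0.15 ± 0.19, and were called in jejunum, at 1.57 ± 0.48 and 0.90 ± 0.37. Kif11, the motor that pushes spindle poles apart, was not called in colon at day 4 (0.33 ± 0.21) and rose 3.59-fold by day 7. Tpx2, which activates Aurka on the spindle, was called in all 4 comparisons and rose 11.2-fold in jejunum by day 7.

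Of the 6 genes of cytokinesis, 5 were called in each tissue at day 4 and 6 at day 7. Anln, a scaffold of the contractile ring, had the largest rise in colon at day 4: from 2.01 to 6.78 CPM (median 4.68) to 8.53 to 24.5 CPM (median 11.9), a log2 change of 1.56 ± 0.26 (adjusted p = 1.1e-05) with no overlap. By day 7 it had risen 5.8-fold in colon and 5.14-fold in jejunum. Prc1 behaved differently in the tissues. In colon it went from 12.1 to 26.2 CPM (median 18.8) to 27.4 to 49.7 CPM at day 4 (median 36.8) and 65.2 to 99.6 CPM at day 7 (median 87). In jejunum it went from 17.1 to 28.2 CPM (median 22.4) to 17.5 to 53.3 CPM (median 23.1) and 22.7 to 90.4 CPM (median 47.6). The colon groups were apart on both days, and the jejunum groups overlapped on both. Prc1 had the lowest change of the 43 genes in jejunum, 0.27 ± 0.30 at day 4 (adjusted p = 0.48) and 1.21 ± 0.31 at day 7 (adjusted p = 0.0011). Ect2 rose 4.72-fold in colon and 10.7-fold in jejunum by day 7.

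Kif23, the motor of the central spindle, varied in colon at day 4 in a way that the other genes did not. Its colon libraries lay between 21.8 and 30.4 CPM in non-irradiated rats, between 31.2 and 95.9 CPM after irradiation alone at day 4 and between 67.3 and 101 CPM at day 7. Replicate 6 at day 4 was at 95.9 CPM and the 5 others at 45.3 CPM or less. Oral vehicle replicate 5, at 99.8 CPM, and injected vehicle replicate 4, at 95.7 CPM, were likewise at the day 7 level at day 4. Summed markers of mature colon cells were the lowest of their groups in these libraries, at 688, 538 and 217 CPM in the order named. The other libraries of these groups lay at 1279 to 11356 CPM. Their epithelial marker sums, 17142, 22962 and 23047 CPM for the libraries named, were the highest of the groups. The part of these marker levels was not tested. Across the colon libraries, the correlation (Pearson's r) of Kif23 with the median of the other members, both taken as deviations from the group mean, was 0.33, against a median of 0.93 over the members and 0.88 for Kif23 in jejunum.

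Of the 6 genes of chromosome structure, 3 were called at day 4 in each tissue and 6 at day 7. Mki67, the proliferation marker Ki-67 that coats mitotic chromosomes, lay between 22.7 and 60.6 CPM in non-irradiated colon (median 40.2), between 32.3 and 57.4 CPM at day 4 (median 47.9) and between 125 and 200 CPM at day 7 (median 169). The first 2 groups overlapped in full and day 7 stood apart, with log2 changes of 0.26 ± 0.23 (adjusted p = 0.37) and 2.06 ± 0.24 (adjusted p = 7.8e-09). In jejunum Mki67 lay between 13.7 and 31.6 CPM (median 17.4), between 6.27 and 89.9 CPM at day 4 (median 23) and between 57.5 and 153 CPM at day 7 (median 95.9). The jejunum change was 0.70 ± 0.39 at day 4 (adjusted p = 0.15) and 2.36 ± 0.41 at day 7 (adjusted p = 1.2e-05).

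Top2a, the topoisomerase that untangles sister chromatids, lay between 25.7 and 63.8 CPM in non-irradiated colon (median 43.9), between 44.8 and 64.6 CPM at day 4 (median 51.1) and between 91.4 and 150 CPM at day 7 (median 125). In jejunum it lay between 2.93 and 12.4 CPM (median 7.56), between 1.83 and 42.6 CPM (median 13.2) and between 37.2 and 118 CPM (median 52.6). Day 7 stood apart from the non-irradiated libraries in both tissues, and in jejunum it overlapped day 4, with a 2.85-fold rise in colon and an 8.53-fold rise in jejunum. Smc4, a core subunit of condensin, was not called at day 4 in either tissue (log2 0.24 ± 0.13 and 0.29 ± 0.23) and rose 2.55-fold and 2.58-fold by day 7, while Smc2, its partner, was called throughout.

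Of the 43 genes, 31 were called higher in all 4 irradiation comparisons, 7 in 3 of them and 5 in 2. Those 5 were Kif15, Mki67, Plk1, Smc4 and Top2a, called at day 7 alone in both tissues. In the single comparisons 24.6% to 32.9% of all genes tested were called higher. How many of all genes were called in all 4 was not counted. The change was larger in jejunum than in colon for 42 of 43 genes at day 4 and 40 of 43 at day 7. The same count over all genes was not made. In the fit of both tissues the median of jejunum minus colon was 0.83 at day 4 and 1.15 at day 7. Over all genes tested it was 0.11 and 0.18. Without replicate 1 of irradiated untreated jejunum the day 4 median of the 43 genes was 0.26, and 0 genes were called larger in jejunum. Across the 43 genes, the changes in the 2 tissues had a Pearson's r of 0.58 at day 4 and 0.42 at day 7 (Spearman's rho 0.57 and 0.45), as a description over genes that share the same libraries.

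Whether the response differed between tissues was tested as an interaction over 84 libraries. At day 4, 3 of 43 genes had a larger rise in jejunum (Kif2c, Cdca3 and Cenpa), where 13.5% of the genes tested did and 8.06% had a smaller rise, with Kif2c at a log2 difference of 1.57 ± 0.50 (adjusted p = 0.017). Without replicate 1 of irradiated untreated jejunum no gene had a larger rise there and 1 had a smaller one, and without replicate 2, 12 had a larger rise. At day 7, 22 genes had a larger rise in jejunum and 1 a smaller one, where 25.3% and 14.1% of all genes tested did, with a median of 1.15 against 0.18 over all genes. With no filter on low counts the day 7 count was 11. Kif2c again differed most, at 2.11 ± 0.49 (adjusted p = 0.00045), followed by Top2a at 1.64 ± 0.50, and Prc1 was the gene with the smaller rise in jejunum, at -0.94 ± 0.37 (adjusted p = 0.037). Colon and jejunum libraries of a group share their library numbers in pairs, but the labels do not say that a pair comes from 1 rat, and the test took them as independent. With the shared number as a block, a fit added after seeing the data, 1 gene had a larger rise in jejunum at day 4 (Kif2c), and 13 had a larger and 1 a smaller rise at day 7.

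The distance between the tissues was smaller after irradiation than before it. The median over the 43 genes of the log2 ratio of mean CPM, jejunum to colon, was -1.80 in non-irradiated rats, -0.95 at day 4 and -0.74 at day 7 after irradiation alone. In oral vehicle rats it was -0.23 at day 4 and -0.28 at day 7, the values nearest to 0 on each day. It was -0.68 and -0.50 with powder, -0.79 and -0.70 with injected vehicle, and -0.39 and -0.57 with injection. The day 4 value after irradiation alone includes replicate 1 of jejunum, the highest library of that group. Without that library the median of the day 4 interaction over the 43 genes was 0.26, against 0.83 with it. At day 7 the ratio was below 0 for 43 of 43 genes in each of the 5 irradiated arms.

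**Figure D3:**
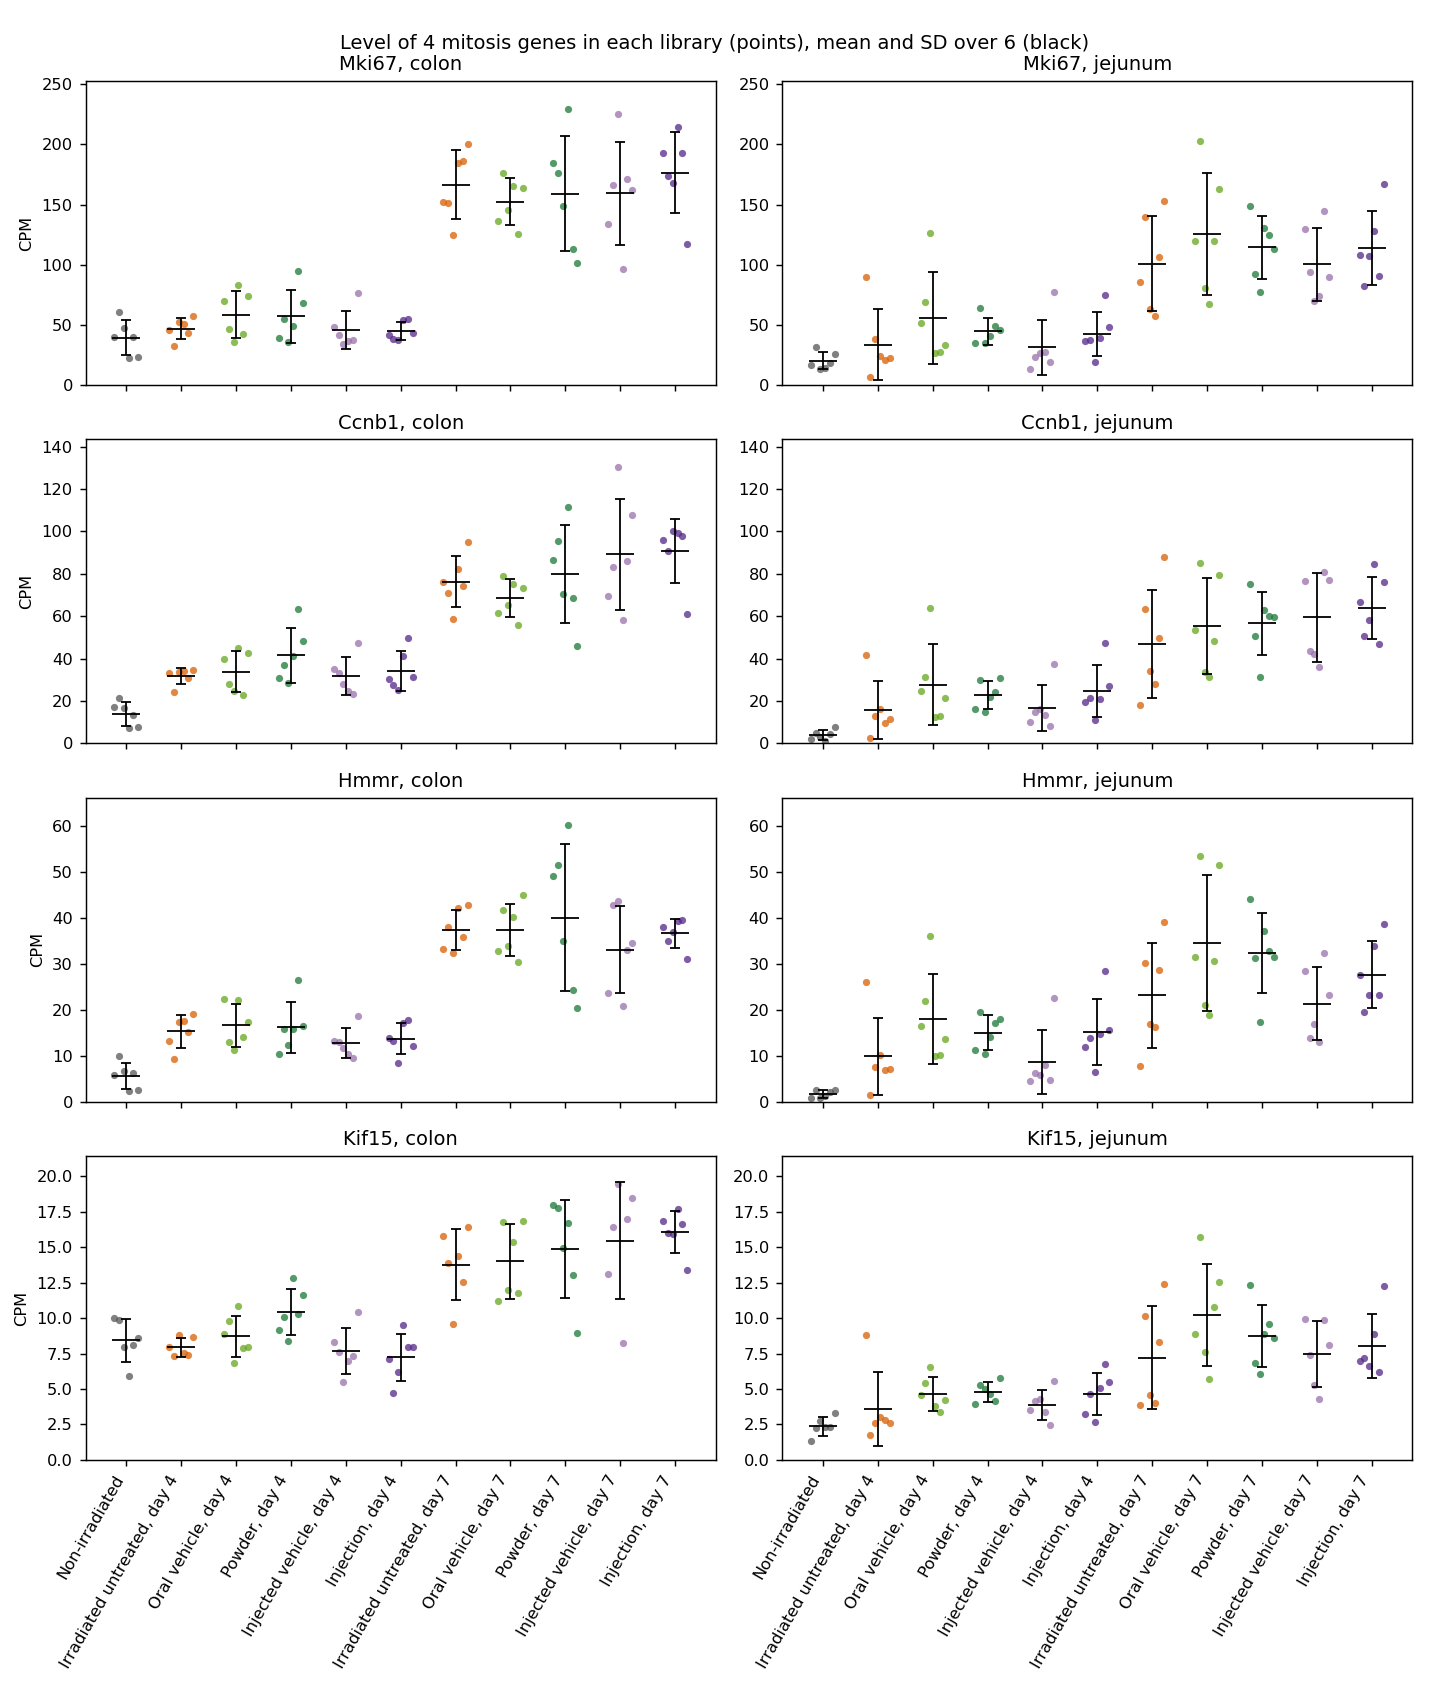
CPM of Mki67, Ccnb1, Hmmr and Kif15 in each library (points) by group, with mean and SD over 6 libraries in black, colon on the left and jejunum on the right, on the same axis within a gene. Mki67 in colon stays between 22.7 and 94.9 CPM in non-irradiated and day 4 libraries and between 96.6 and 230 CPM at day 7, and Kif15 changes least.

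Day 7 was above day 4 in each of the 10 arms compared, again as counts of the 43 genes. In colon, 43 genes were called higher at day 7 after irradiation alone (where 18% of all genes tested were higher), 43 with oral vehicle (12.7%), 42 with powder (26.2%), 42 with injected vehicle (16%) and 43 with injection (19.2%). The colon medians lay between 1.01 and 1.38 on the log2 scale. In jejunum the counts were 42 after irradiation alone (20.3% of all genes), 23 with oral vehicle (11.2%), 35 with powder (18.3%), 43 with injected vehicle (25.5%) and 39 with injection (19.7%), with medians of 1.02 or more on the log2 scale. No gene was called lower at day 7 in any arm. Mki67 had the largest increase from day 4 to day 7 in irradiated untreated colon, 1.80 ± 0.24 (adjusted p = 9.7e-07), followed by Cenpe (1.58), and Kif15 (0.77) and Nusap1 (0.84) had the smallest. In irradiated untreated jejunum Top2a (2.02) and Bub1b (1.85) had the largest, and Anln (0.67, adjusted p = 0.10) and Aurka (0.71) the smallest. The library median of jejunum at day 4 was 1.97 ± 0.74 (SD, n = 6) with oral vehicle and 1.08 ± 1.04 after irradiation alone. It was 1.82 ± 0.35 with powder, 1.23 ± 0.70 with injected vehicle and 1.77 ± 0.62 with injection. The part of these day 4 levels and spreads in the low count with oral vehicle was not tested. With the replicate number as a block, the count with oral vehicle in jejunum was 11.

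**Figure D4:**
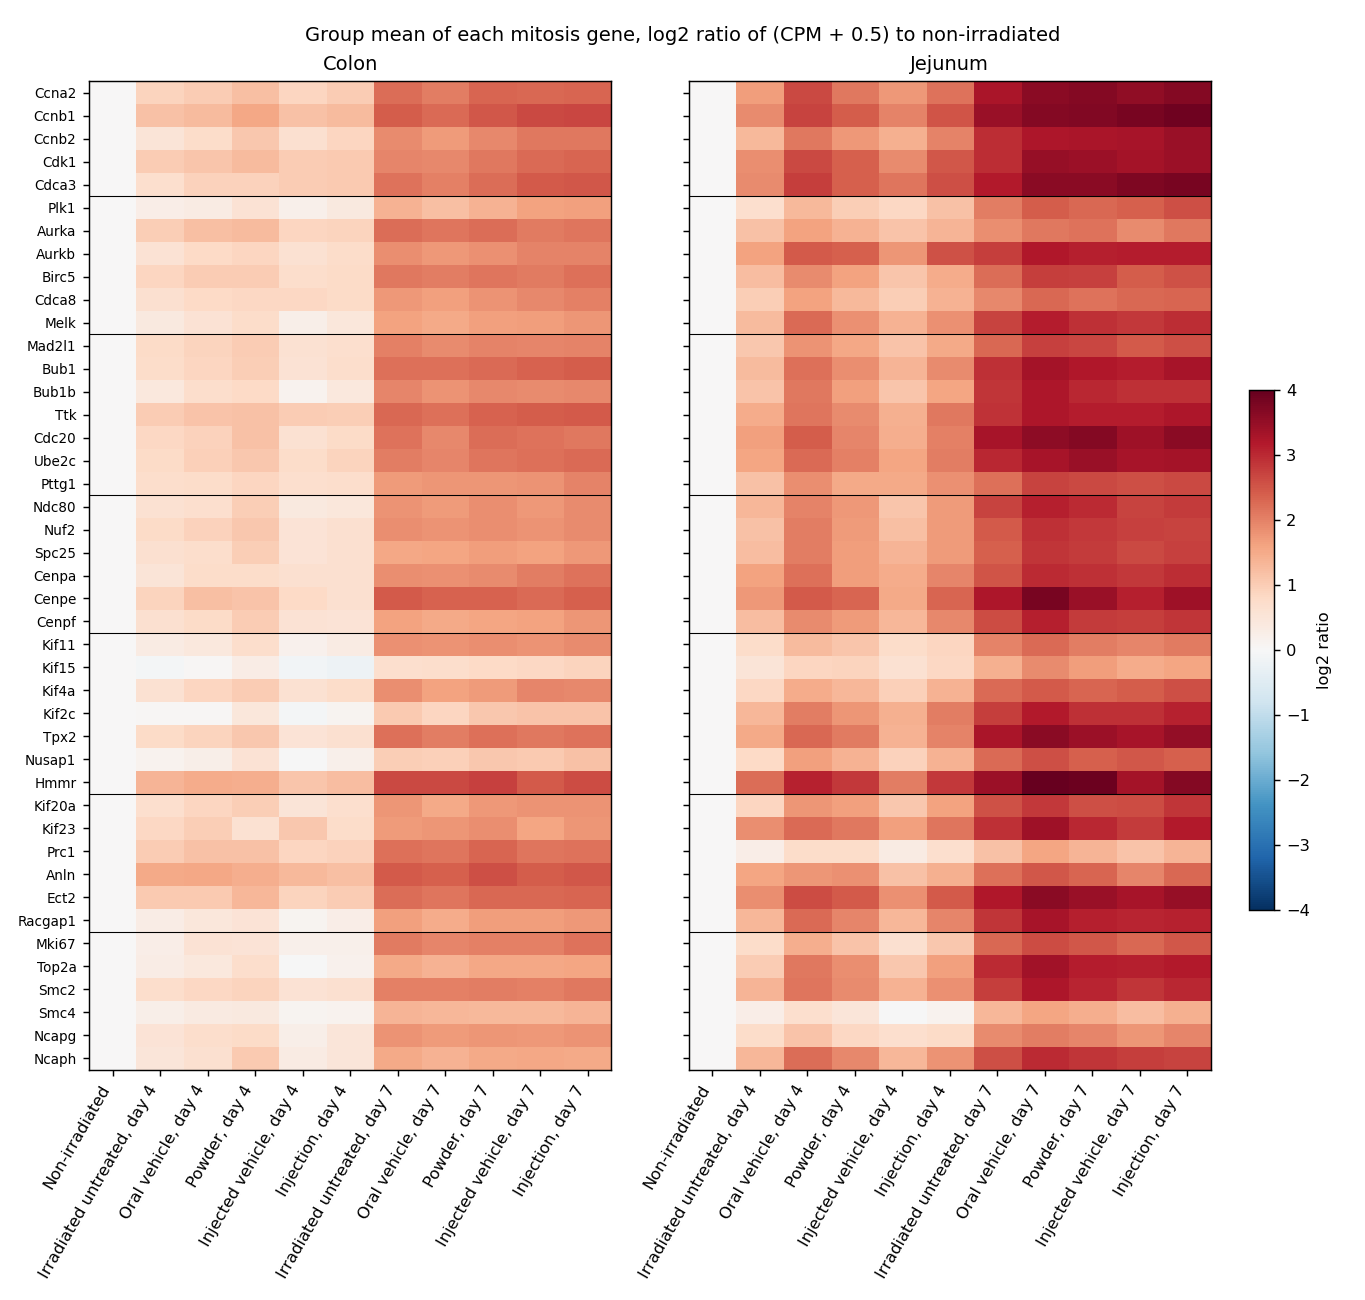
Group means of the 43 tested genes (rows, by role) in the 11 groups of each tissue (columns), as the log2 ratio of (CPM + 0.5) to the non-irradiated group of the tissue, with red above and blue below it. Columns of day 7 are darkest, columns of a day resemble each other across arms, and Kif15, Prc1 and Smc4 are pale rows in jejunum.

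Compound Kushen powder was compared with oral vehicle in irradiated rats, to ask whether the powder changed these genes. No mitosis gene was called in any of the 4 comparisons, with edgeR or with DESeq2. At an unadjusted p under 0.05 edgeR gave 2 genes in colon at day 4, Kif2c and Ncaph, and 0 in the other comparisons. The share of all genes at that threshold was not counted. Of all genes tested, 11.8% were called in colon at day 4, 0% in colon at day 7 and 0.008% in jejunum on either day. Kif2c at day 4 in colon lay between 8.51 and 18.7 CPM with vehicle (median 14.6) and between 14.4 and 25.7 CPM with powder (median 19.2). These groups overlap, at a log2 difference of 0.44 ± 0.18 (adjusted p = 0.098). Kif23 had the lowest difference there, -0.40 ± 0.23.

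Confidence intervals give the sizes of a powder effect that these libraries allow. In colon the 95% confidence interval lay inside ±1 on the log2 scale for 43 of 43 genes on both days, with medians of 0.15 and 0.15. Ccnb1 in colon was at 22.8 to 44.8 CPM with vehicle and 28.3 to 63.4 CPM with powder at day 4, a difference of 0.30 with an interval from -0.14 to 0.75, and Mki67 differed by -0.04 (-0.51 to 0.44). In jejunum the intervals were wider, and 14 of 43 genes at day 4 and 31 at day 7 lay inside ±1, with medians of -0.27 and -0.12. Mki67 in jejunum at day 4 was at 26.8 to 126 CPM with vehicle (median 42.6) and 34.6 to 64.4 CPM with powder (median 42.9). The medians are nearly equal and the vehicle libraries spread further. Within series 1 the median powder difference in jejunum at day 4 was -0.89, and within series 2 it was 0.57, with 0 genes called in either. Cenpa (-0.56 ± 0.38) and Anln (0.08 ± 0.33) marked the ends of the range in the pooled comparison.

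Compound Kushen injection was compared with its own vehicle in the same way. No mitosis gene was called by edgeR in any of the 4 comparisons, where 0% of all genes tested were called. DESeq2 called 0 as well, but in jejunum at day 4 it gave 21 of the 43 genes no adjusted p. In colon the medians were 0.11 at day 4 and 0.07 at day 7, and the interval lay inside ±1 for 43 of 43 genes on both days. Ccnb1 in colon at day 7 lay between 58.2 and 130 CPM with vehicle (median 84.7) and between 60.9 and 100 CPM with injection (median 96.9), a difference of 0.04 with an interval from -0.38 to 0.46. In jejunum at day 7 the median was 0.13, and 40 of 43 intervals lay inside ±1. In jejunum at day 4 only 8 of 43 did. There all 43 lower bounds lay above -1, and the highest upper bound was 1.68 (Cenpe).

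Jejunum at day 4 was where the injected arms lay furthest apart. All 43 genes had a fitted value above 0 with injection, with a median of 0.53, none was called, and 7 had an unadjusted p under 0.05 in edgeR (9 in DESeq2). The share of all genes at that threshold was not counted, here or for the fit below. The genes vary together within groups (median r of 0.95), so these counts are not separate results. Cenpe (0.90 ± 0.38), Hmmr (0.85 ± 0.37) and Aurkb (0.83 ± 0.26) were highest, each at an adjusted p of 0.58, and Ncapg was lowest at 0.11. Hmmr lay between 4.41 and 22.6 CPM with vehicle (median 5.96) and between 6.45 and 28.4 CPM with injection (median 14.4), and the groups overlap. Vehicle replicate 6 stood at 2.54 on the library median, above 0.53 to 1.23 in the other 5 vehicle libraries and within the 0.81 to 2.72 of the injection libraries. Its summed markers of absorptive jejunum were 16001 CPM, against 54399 to 104830 CPM in the other 5. Without that library, a choice made after seeing the data, the median was 0.97, 38 genes had an unadjusted p under 0.05, and 0 were called (lowest adjusted p = 0.052). The part of this library and of its marker level was not tested further. The difference between days of the powder or injection effect was tested in both tissues, and 0 of 43 genes were called in each of these 4 tests, where 0% of all genes were.

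Oral vehicle was also compared with irradiation alone. No mitosis gene was called in either tissue on either day, where 0% of all genes tested were in either tissue at day 4, 0.00752% in colon at day 7 and 0.008% in jejunum at day 7. In jejunum at day 4 all 43 fitted values were above 0, with a median of 0.76, and 17 had an unadjusted p under 0.05 in edgeR (18 in DESeq2). The share of all genes at that threshold was not counted, here or for the fits below. As the genes vary together within groups, these counts are not separate results. Top2a had the highest value, 1.09 ± 0.45 (adjusted p = 0.53): it lay between 1.83 and 42.6 CPM after irradiation alone (median 13.2) and between 16.5 and 87.2 CPM with vehicle (median 27.8). This comparison moved with the 2 libraries named above. Without replicate 1 of irradiated untreated jejunum the median was 1.36 with 42 genes at an unadjusted p under 0.05. Without replicate 2 it was 0.55 with 1 gene, and 0 were called either way. The vehicle libraries were uneven as well, with mean library medians of 2.50 in series 1 and 1.43 in series 2. Vehicle replicate 3 was the highest, at 3.23, and held the Top2a value of 87.2 CPM. No fit without it is given here. In jejunum at day 7 the median was 0.40, and in colon 0.13 at day 4 and -0.09 at day 7. The confidence interval lay inside ±1 for 43 of 43 genes in colon on both days. In jejunum it did so for only 3 genes at day 4 and 7 at day 7. All 43 lower bounds lay above -1 there, and the highest upper bounds were 2.02 (Melk) and 1.44 (Cdk1).

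**Figure D5:**
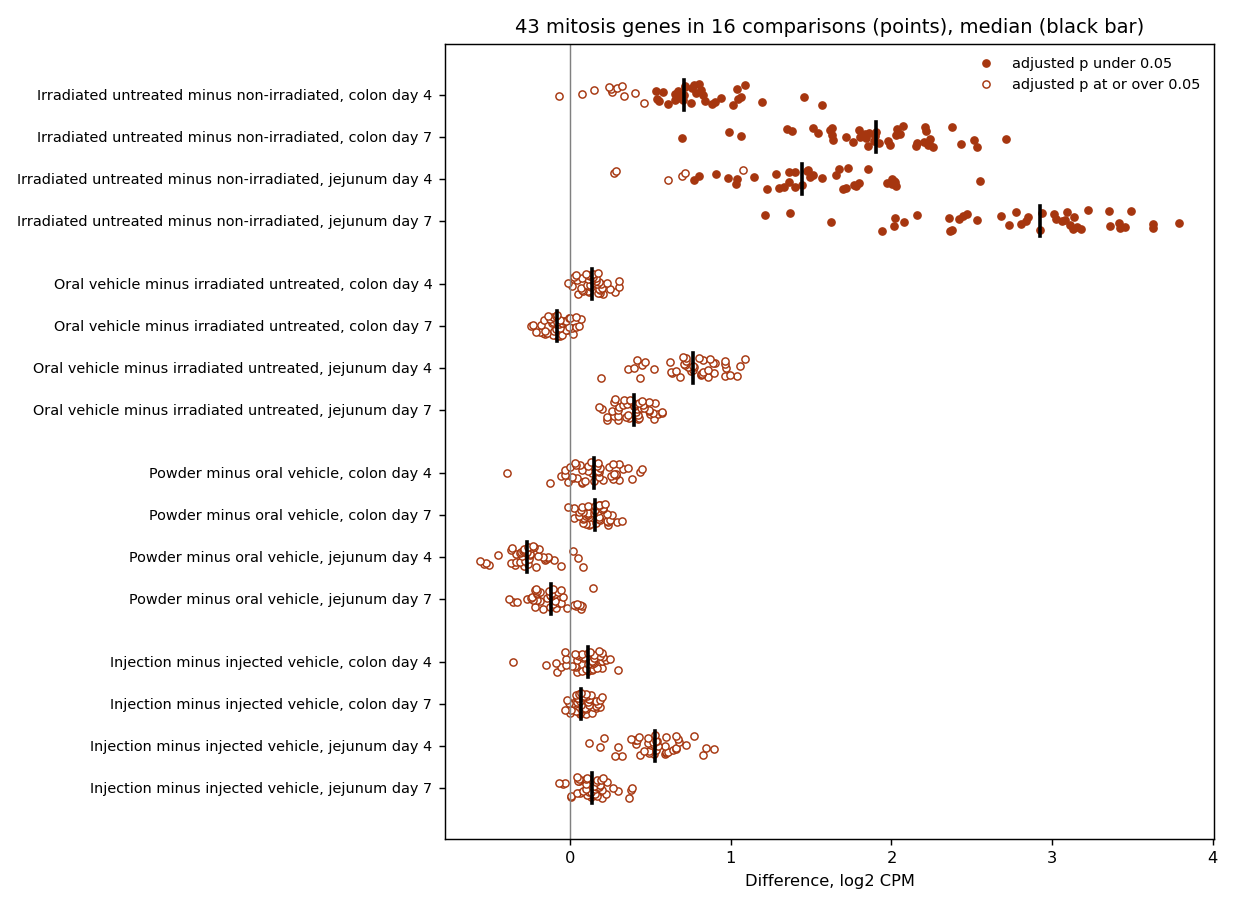
Log2 differences of the 43 tested genes (points) in 16 comparisons, with the median as a black bar, filled where the adjusted p is under 0.05. Filled points occur in the irradiation comparisons alone, and the jejunum day 4 rows of oral vehicle and injection lie to the right of 0 with open points.

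Across groups, non-irradiated rats had the lowest mean for 40 of 44 genes in colon and 42 in jejunum. The highest mean fell to the injection group at day 7 for 30 genes in colon and to the oral vehicle group at day 7 for 31 in jejunum. Neighbouring day 7 groups do not differ beyond their spread: the colon library medians at day 7 were 1.94 ± 0.24 (SD, n = 6) after irradiation alone, 1.84 ± 0.20 with oral vehicle, 1.92 ± 0.40 with powder, 1.96 ± 0.37 with injected vehicle and 2.03 ± 0.20 with injection. In jejunum they were 2.58 ± 0.72, 3.07 ± 0.60, 2.98 ± 0.40, 2.88 ± 0.41 and 2.96 ± 0.31 in the same order. Injected groups are all of series 3 and were not tested against the others.

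The genes varied together from library to library. The correlation of a gene with the median of the others over all libraries had a median of 0.97 over the 44 genes, and 0.95 when deviations from the group means were used. Foxm1 was lowest within groups at 0.36, then Anln at 0.66 and Kif23 at 0.74. These libraries share scaling and tissue makeup, so the values are a description. Among the 13698 genes outside the set, Spag5, a spindle protein, followed the median of the set most closely over all libraries (r = 0.99), with Ccnf, Kifc1, Tacc3, Cep55, Arhgap11a, Cdca2, Tk1, Pbk and AABR07021955.1 next. Within groups Arhgap11a, Spag5, Kifc1, Ccnf and Nek2l1 led, at r of 0.97 each.

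Other genes of the cell cycle moved as follows in the irradiation comparisons. Of 59 further mitosis genes tested in colon, 38 were higher and 2 lower at day 4, and 57 higher and 0 lower at day 7. In jejunum, 43 of 58 were higher and 1 lower at day 4, and 57 were higher and 0 lower at day 7. Gtse1, which is both a mitotic spindle protein and a p53-linked gene, rose early: by 3.16 in colon and 4.04 in jejunum at day 4 on the log2 scale, and 3.02 and 3.86 at day 7. Hjurp, the chaperone that loads Cenpa, fell by 0.47 in colon and by 1.14 in jejunum at day 4. At day 7 every further mitosis gene tested had a fitted value above 0, the lowest at 0.04 in colon and 0.006 in jejunum. Of 20 DNA replication genes, 15, 18, 13 and 19 were higher in colon at days 4 and 7 and jejunum at days 4 and 7. Rrm2, a subunit of ribonucleotide reductase, rose by 2.45 and 3.60 in colon and by 3.48 and 4.69 in jejunum.

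Of the 14 genes tested that control transcription of mitosis genes, 3, 7, 5 and 7 were higher and 4, 5, 4 and 4 lower, in the same order of comparisons. Mybl2, which encodes B-Myb, rose in all 4, by 2.41 and 3.04 in colon and by 3.18 and 3.68 in jejunum. Its level in irradiated untreated jejunum at day 4 was 57.8 CPM in replicate 1 and 4.92 CPM in replicate 2, the ends of that group as for the mitosis genes. Rbl2, the p130 protein of the repressor complex of resting cells, fell in all 4, by 0.82 and 0.71 in colon and by 0.80 and 0.43 in jejunum. Among 8 switches of mitotic entry, 2, 6, 3 and 5 were higher and 1, 1, 0 and 0 lower; Mastl, the kinase that blocks the opposing phosphatase, rose by 1.43 and 2.31 in colon and by 1.80 and 3.21 in jejunum.

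Of 9 cell cycle inhibitors tested, 3, 4, 2 and 2 were higher and 3, 2, 3 and 7 lower in the same order. Of all genes tested, 24.6%, 32.9%, 25% and 31.4% were higher and 22.3%, 30.8%, 18.9% and 27.4% lower in these comparisons. Ccng1 rose in all 4 comparisons, by 2.73 and 1.71 in colon and by 2.66 and 2.08 in jejunum. Cdkn1a, the p21 inhibitor, rose by 1.35 in colon at day 4 and by 0.52 at day 7, rose by 0.70 in jejunum at day 4 and fell by 0.61 there at day 7. Cdkn1b, the p27 inhibitor of resting cells, fell in all 4, by 0.85 and 0.86 in colon and by 1.24 and 0.95 in jejunum, and so did Cdkn2b. In the powder, injection and oral vehicle comparisons 0 genes of these 5 lists were called, apart from 1 inhibitor higher and 1 lower with powder in colon at day 4.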

How the data were processed

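Per the submitters' processing notes, reads were aligned with STAR 2.7.10a to mRatBN7.2; for the counting tool, annotation and strand the sources used here give nothing. The deposited values are raw gene counts by the authors, in 2 tables. Of 168 columns, 36 repeat a library with the same values, and each was used once. Members and lists were chosen with earlier results of these data known. The genes named are the given members, a panel of them, the 3 highest and 3 lowest changes, and the 10 other genes that correlate best with the members. Kif23 in colon and the genes named from other lists were singled out after their values were seen.

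Genes were filtered by filterByExpr, scaled by TMM and tested with edgeR 4.0.16 (quasi-likelihood, R 4.3.3), with Benjamini-Hochberg adjustment over all genes of a comparison. Each tissue had a fit of 42 libraries with library series as a term and a fit of 24 injected libraries. Tissue differences used 84 libraries. The p-values measure the spread between libraries, since rat identities are not given. DESeq2 1.42.0 and other settings were alternatives. On simulated counts for irradiated colon at day 7 (13306 genes), 73% of log2 changes of 1 and 92.9% of changes of 2 were recovered. For injection in jejunum at day 4 (12180 genes) the shares were 64.9% and 95.9%. Errors of levels are the SD over 6 libraries.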

Additional observations from a re-analysis of the deposited data

Results flagged for a closer look

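Each of the 22 groups was examined in 4 measures, the median of the mitosis genes, Mki67, Ccnb1 and Top2a. A library whose gap to the nearest other library exceeded Dixon's 95% critical value was found in 10 of the 88 pairs of group and measure, all from 5 groups. Chance gives about 1 in 20 for a single measure, and these measures vary together, so the 10 are not independent. In injected vehicle jejunum at day 4, replicate 6 stood above the others in the median of the mitosis genes (2.54), in Mki67 (77.4 CPM), in Ccnb1 (37.6 CPM) and in Top2a (42.4 CPM). In injection colon at day 7, replicate 6 was low in the median (1.65) and in Ccnb1 (60.9 CPM). Oral vehicle jejunum at day 4 had replicate 3 high in Ccnb1 (63.9 CPM) and Top2a (87.2 CPM). Irradiated untreated jejunum at day 4 had replicate 1 high in Ccnb1 (41.8 CPM), and injected vehicle colon at day 4 had replicate 6 high in Mki67 (76.5 CPM).

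The irradiation effect differed between jejunum and colon by the interaction test for 3 mitosis genes at day 4 and 23 at day 7, of 43 tested. Of all genes tested, 13.5% had a larger and 8.06% a smaller rise in jejunum at day 4, and 25.3% and 14.1% at day 7. Without replicate 1 of irradiated untreated jejunum the day 4 count was 0 larger and 1 smaller. Kif2c had the larger rise in jejunum, by a log2 of 1.57 at day 4 and 2.11 at day 7, and Prc1 the smaller one at day 7, by -0.94.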

How the results depend on the processing

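Of 173 counts of called mitosis genes under alternatives, 160 stayed within 1.5 times the reported count, but 92 of these were 0 in both fits and 27 were 43 in both, and those counts could hardly move. For irradiation in colon at day 4 the count fell to 4 with series 1 alone and 8 with the mitochondrial share as covariate, and at day 7 to 0 with that covariate. For irradiation in jejunum at day 4 it was 13 with series 1, 19 with series 2, 23 with only the compared groups in the fit and 14 to 40 without replicate 1 or replicate 2 of irradiated untreated jejunum. For the tissue difference at day 4 it was 1, in the other direction, without replicate 1 and 12 without replicate 2, and at day 7 it was 11 with no filter. With the library number shared by colon and jejunum as a block it was 1 at day 4 and 14 at day 7. Deviations of libraries with a shared number correlated between -0.37 and 0.53, and 1 of 11 arms had every pair above 0.1. Of 66 colon libraries, 26 correlated best with the jejunum library of their own number. The median over the pairs of an arm ran from -0.072 to 0.283. The mean over other numbers ran from -0.050 to 0.006. Some pairing of the tissues is thus not excluded. The replicate number as a block moved the day 7 against day 4 count with oral vehicle in jejunum from 23 to 11 and no other count by over 1.5 times. Libraries with the same replicate number in the compared groups did not deviate together throughout: 0 of 27 comparisons had all 6 pairs above 0.1 (range -0.73 to 0.83). The cause of these changes was not tested, and the share of all genes called under the alternatives was not counted.

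Values of named genes changed sign 55 times, in each case for a gene not called in the reported test; called genes kept their call 1315 times and lost it 197 times. Irradiation, colon day 4: series 1 Mki67 -0.17, Plk1 -0.15, Nusap1 -0.031, Racgap1 -0.018, covariate Mki67 -0.12, Kif11 -0.037, Plk1 -0.11, Nusap1 -0.079, Kif2c -0.11, Racgap1 -0.023, series 2 Kif15 0.10. Powder, colon day 4: series 2 Mki67 0.087, Anln 0.046, Cenpe 0.14, covariate Mki67 0.063, Anln 0.047, Cenpe 0.10. Powder, colon day 7: series 2 Mki67 -0.046, Cenpe -0.15, Pttg1 -0.23, series 1 Smc4 0.052, covariate Cenpe -0.045, Pttg1 -0.016, 2 groups only Cenpe -0.0018, Pttg1 -0.0029. Injection, colon day 7: covariate Cdc20 0.034, Kif4a 0.040, replicate block Ncaph 0.014, no filter on low counts Kif4a 0.011. Oral vehicle, colon day 4: series 2 Kif2c 0.094, replicate block Ect2 -0.0062, series 1 Ect2 -0.014. Oral vehicle, colon day 7: series 1 Mki67 0.090, Kif4a 0.16, Kif23 -0.0026. Irradiation, jejunum day 4: without irradiated untreated replicate 1 Prc1 -0.034. Powder, jejunum day 4: series 2 Mki67 0.64, Ccnb1 0.74, Cenpa 0.049, Ccna2 0.36, Cdc20 0.70, replicate block Prc1 -0.0029, series 1 Prc1 -0.55, Kif15 -0.23, Anln -0.015. Powder, jejunum day 7: series 2 Mki67 0.070, series 1 Ccnb1 -0.15, Aurka -0.098, Ccna2 -0.13. Oral vehicle, jejunum day 7: series 2 Ccnb1 -0.058, Kif4a -0.066. Injection effect, day 7 minus day 4, jejunum: without injected vehicle replicate 6 Anln -0.026, Ncapg -0.16. Irradiation effect, jejunum minus colon, day 4: without irradiated untreated replicate 1 Mki67 -0.094, Smc4 -0.13. Without irradiated untreated replicate 2 the same values were Prc1 0.38 for irradiation in jejunum, and Mki67 0.71 and Smc4 0.15 for the tissue difference.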
